A study of Mus musculus with 4 samples.

Results

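The genes described here are 9 sulfotransferase genes of mouse liver, namely Sult2a1, Sult2a2, Sult2a3, Sult2a4, Sult2a5, Sult2a6, Sult1a1, Sult1d1 and Sult5a1. They were taken by symbol from a read count table of 35275 genes, all 9 were found in it, and they were chosen by levels already known from these libraries, so their values are a description and carry no test. The study asked how interval training (IT) and AApoAII amyloidosis, in which apolipoprotein A-II builds up as amyloid fibrils, change the liver transcriptome. The data are 4 liver libraries from 16 female mice, each made from the pooled tissue of 4 of them.

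VS mice received the vehicle and stayed sedentary, VI mice received the vehicle and ran on a treadmill in intervals, FS mice received AApoAII fibrils and stayed sedentary, and FI mice received fibrils and ran. Training lasted 16 weeks and all mice were 26 weeks old at the end. The study took the organs within a day after training. A response to the last run therefore cannot be told apart here from that to 16 weeks of training. The study reported less liver amyloid in its FI than in its FS mice. FI and FS can therefore differ in amyloid load as well as in training, and these cannot be told apart here. All 4 groups, VS included, carried the amyloidogenic Apoa2c allele as congenic mice. The sample labels give their strain as AKR/J, while the study's methods name the strain R1.P1-Apoa2c and its background SAMR1, a senescence-resistant mouse line. Homogenates were pooled before RNA was extracted, so each group is 1 value, the spread between mice is unknown, and no difference below can be set against it. The 95% intervals given below cover counting error only. In bulk liver, fewer cells of a type and less RNA per cell cannot be told apart.

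Cytosolic sulfotransferases move a sulfonate group from the donor PAPS (3'-phosphoadenosine 5'-phosphosulfate) onto a hydroxyl or amino group of a small molecule, which makes it more soluble in water and easier to excrete. The Sult2a enzymes act on hydroxysteroids such as dehydroepiandrosterone and on bile acids, and in mice their liver transcripts are more abundant in females than in males. Sult1a1 acts on simple phenols and Sult1d1 on catecholamines and other phenols, while the substrates of Sult5a1 are poorly known.

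The 6 Sult2a genes lie in 1 cluster on chromosome 7 (mm10), from 13623967 at the start of Sult2a5 to 14254870 at the end of Sult2a6, with Sult2a2, Sult2a1, Sult2a4 and Sult2a3 between them in that order. Sult2a2 and Sult2a5 are on the plus strand and the others on the minus strand. Sult1a1 is on the same chromosome but far from the cluster (126672865 to 126676432), Sult1d1 is on chromosome 5 (87554645 to 87569027) and Sult5a1 on chromosome 8 (123142847 to 123158315). All 9 are annotated as protein coding.

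The Sult2a genes are close copies of each other. Over aligned coding bases of the GENCODE M21 transcripts, the 15 pairs were 88.0% (Sult2a3 with Sult2a6) to 97.9% (Sult2a1 with Sult2a2) identical. Sult1a1, Sult1d1 and Sult5a1 shared 60.5% to 72.3% with the Sult2a genes. The coding sequence of Sult2a2 had 582 bases there, against 855 for Sult2a1, so identities with Sult2a2 cover a shorter stretch. With gaps counted, Sult2a1 and Sult2a2 were 66.7% identical. Exact stretches of 50 bases that also occur in another gene of the family made up 62.1% of the Sult2a2 transcript, 34.5% of Sult2a5, 33.2% of Sult2a1, 25.5% of Sult2a4, 8.36% of Sult2a3 and 6.63% of Sult2a6. Reads from such stretches can be lost or assigned to the wrong copy, so the values of single copies are uncertain, least for Sult2a3 and Sult2a6, and the sum of the 6 genes is given beside them.

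**Figure D1:**
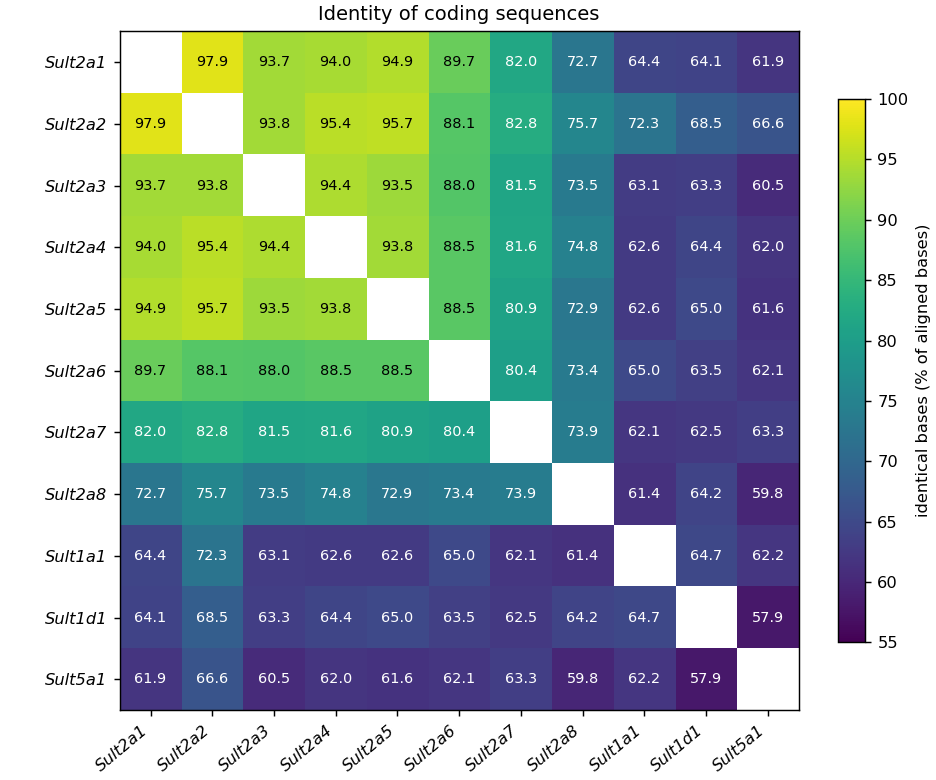
Percentage of identical bases over the aligned coding sequence for each pair of genes; rows and columns are genes, and darker colours stand for lower identity. The 6 Sult2a genes form a block of 88.0% to 97.9%, Sult2a7 stands at 80.4% to 82.8% with them, Sult2a8 at 72.7% to 75.7%, and the other 3 members lower.

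The copies also share sequence ahead of their starts. RefSeq promoters of build GRCm38.p6 matched 7 of the 9 members, all but Sult2a1 and Sult2a2. The 250 bases before the start are shown for 4 copies of the cluster, on the strand of each gene, because the same stretch recurs in them at different distances. Capitals mark matches on either strand to AGTTCA, a core sequence bound by many nuclear receptors, and to TCATGAAC, which overlaps it and was picked after these promoters had been read.
Sult2a3, chr7:14123049-14123298, minus strand: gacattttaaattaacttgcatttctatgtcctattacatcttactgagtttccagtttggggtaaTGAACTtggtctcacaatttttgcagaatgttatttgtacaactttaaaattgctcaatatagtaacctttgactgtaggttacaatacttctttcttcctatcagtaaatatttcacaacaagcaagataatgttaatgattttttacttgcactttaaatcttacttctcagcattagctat
Sult2a4, chr7:13989589-13989838, minus strand: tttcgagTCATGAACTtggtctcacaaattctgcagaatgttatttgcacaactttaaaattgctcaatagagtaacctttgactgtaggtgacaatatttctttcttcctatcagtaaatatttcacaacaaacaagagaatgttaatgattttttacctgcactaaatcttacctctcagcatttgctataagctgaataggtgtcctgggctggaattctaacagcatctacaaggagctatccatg
Sult2a5, chr7:13623717-13623966, plus strand: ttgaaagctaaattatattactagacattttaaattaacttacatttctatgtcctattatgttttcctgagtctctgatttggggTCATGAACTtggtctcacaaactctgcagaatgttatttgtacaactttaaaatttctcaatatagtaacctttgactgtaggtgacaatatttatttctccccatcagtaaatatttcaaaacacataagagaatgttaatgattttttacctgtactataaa
Sult2a6, chr7:14254871-14255120, minus strand: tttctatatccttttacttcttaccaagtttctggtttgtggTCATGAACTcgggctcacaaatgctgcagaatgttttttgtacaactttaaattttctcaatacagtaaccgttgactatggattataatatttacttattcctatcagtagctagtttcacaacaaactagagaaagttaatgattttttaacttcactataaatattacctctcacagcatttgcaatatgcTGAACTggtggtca

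TCATGAAC occurred 243 to 236 bases before the start of Sult2a4, 164 to 157 bases before that of Sult2a5 and 208 to 201 bases before that of Sult2a6. It was found in 0.496% of 32851 promoter windows of the same length. Sult2a3 had only AGTTCA at the matching place, 184 to 179 bases before its start, and Sult2a6 had a further AGTTCA 14 to 9 bases before its start. AGTTCA alone was in 11.8% of windows. The window of Sult1d1 held AGTTCA 119 to 114 bases before the start, and those of Sult1a1 and Sult5a1 held neither. AGGTCA and TTATGTAA, searched on both strands as well, were in 14.0% and 0.819% of windows and in none of the 7. These are matches of letters in copies with a common origin, not sites shown to be bound.

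The libraries held 23442935 counts in VS and 28814802 in FS, against 24524287 in VI and 24801185 in FI, so that 3 counts stand for 0.102 to 0.127 counts per 1e+06 (CPM). CPM were scaled by TMM, a method that sets library sizes by the bulk of genes. Albumin took 12.1% to 13.6% of counts, and 7 hepatocyte markers together held 158468 to 176204 CPM. Of 12180 genes that reached 1 CPM in some library, 1.54% were more than 2-fold higher and 1.9% more than 2-fold lower in VI than in VS. In FI against FS the shares were 1.75% higher and 2.53% lower. Fibrils gave 3.6% higher and 2.2% lower genes in FS against VS, and 2.59% higher and 1.95% lower genes in FI against VI. Each library enters a training and a fibril comparison, so these comparisons are not independent. Where 4 values are listed below without names, they are for VS, VI, FS and FI in that order. Of the 9 members 8 passed 1 CPM in some library. Sult2a4 did not, and Sult5a1 passed only through FI, where it was highest.

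Together the Sult2a genes stood at 556 CPM in VS (546 to 565) and 371 in FS (364 to 378), against 143 in VI (138 to 147) and 75.0 in FI (71.6 to 78.5). Both trained livers lay below both sedentary livers, and within each the fibril library lay below its vehicle library. The level in VS was 3.90-fold that in VI, a log2 ratio of −1.96 (−2.02 to −1.91), and the level in FS was 4.95-fold that in FI, a log2 ratio of −2.31 (−2.38 to −2.24). Fibrils against vehicle gave log2 ratios of −0.58 (−0.62 to −0.55) in sedentary livers and −0.93 (−1.01 to −0.84) in trained livers. The training ratio was 0.34 lower in fibril than in vehicle livers on the log2 scale (difference −0.34, −0.43 to −0.25, beyond counting error but not tested across mice). That difference turned to 0.24 when Sult2a7, Sult2a8 and the pseudogenes were added to the sum, and the training ratios were then −1.21 and −0.96. Without Sult2a1 they were −1.16 and −1.68.

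**Figure D2:**
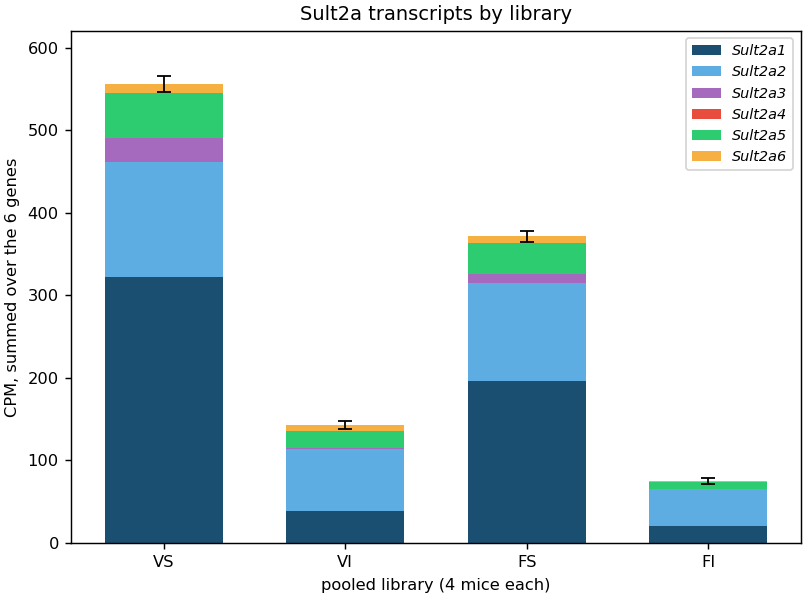
Stacked CPM of the 6 Sult2a genes in each of the 4 pooled libraries; colours are genes and the black bars are exact Poisson 95% intervals of the sum, which cover counting error only. The sums are 556 (VS), 143 (VI), 371 (FS) and 75.0 (FI), and the dark Sult2a1 segment is the largest in the sedentary libraries but not in the trained ones.

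Sult2a1 (ENSMUSG00000078798) was the most abundant copy in sedentary livers, with 322 CPM in VS and 196 in FS, against 38.4 in VI and 20.3 in FI. It was lower in both trained libraries than in either sedentary one. VS was 8.39-fold above VI and FS was 9.63-fold above FI, with log2 ratios of −3.07 (−3.17 to −2.97) and −3.27 (−3.40 to −3.13). Its log2 ratios with fibrils were −0.72 (−0.77 to −0.67) without training and −0.92 (−1.08 to −0.76) with it. Its share of all Sult2a counts was 58.0% in VS and 52.7% in FS against 27.0% in VI and 27.1% in FI.

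Sult2a2 (ENSMUSG00000070811), the nearest copy to Sult2a1 in sequence, had 140 CPM in VS (134.8 to 144) and 119 in FS, against 74.6 in VI and 44.7 in FI. It followed the same order of libraries over a narrower range. Its log2 ratios with training were −0.90 (−0.99 to −0.82) in vehicle livers and −1.41 (−1.51 to −1.31) in fibril livers. As these ratios were smaller than those of Sult2a1, its share of Sult2a counts went from 25.1% in VS to 52.4% in VI and from 31.9% in FS to 59.6% in FI. Sult2a2 was thus the leading copy in both trained livers. Fibrils against vehicle gave −0.23 (−0.30 to −0.17) and −0.74 (−0.85 to −0.63).

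Sult2a3 (ENSMUSG00000074375) had the widest range of the copies. It had 673 counts in VS and 323 in FS, against 53 in VI and 3 in FI, or 28.5 and 10.9 CPM against 2.18 and 0.124. The log2 ratio was −3.70 (−4.14 to −3.31) for VI versus VS and −6.24 (−8.75 to −4.90) for FI versus FS, the latter with only 3 counts in FI and at −3.43 in FPKM with a pseudocount of 1. It was also the member with the largest fibril ratios among those that passed 1 CPM, −1.38 (−1.58 to −1.19) in sedentary livers and −3.92 (−6.46 to −2.51) in trained livers, the latter at −1.49 in FPKM with a pseudocount of 1. Its share of Sult2a counts was 5.13% in VS and 2.95% in FS, against 1.53% in VI and 0.165% in FI (exact binomial interval 0.0341% to 0.483%).

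Sult2a4 (ENSMUSG00000074377) was close to the limit of detection. It had 9 counts in VS, 1 in FS and none in VI or FI, with exact Poisson upper limits of 0.151 and 0.152 CPM. With the 9 counts in VS taken as they stand, VS was at least 3.09-fold higher than a floor of 3 counts in the VI library. With the counting error of both libraries, the interval of the log2 ratio of VI versus VS ended at −1.03. The 9 counts in VS and 1 in FS gave a log2 ratio of −2.99 (−8.95 to −0.64), which was −1.54 with a prior of 5 counts and −0.43 in FPKM with a pseudocount of 1, and no ratio is given for FI against FS or VI.

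Sult2a5 (ENSMUSG00000078799), at the other end of the cluster from Sult2a6, had 54.6 CPM in VS and 38.3 in FS, against 20.2 in VI and 7.85 in FI. The trained libraries again lay below the sedentary ones. Its log2 ratios with training were −1.43 (−1.58 to −1.28) in vehicle livers and −2.28 (−2.52 to −2.06) in fibril livers. With fibrils they were −0.51 (−0.63 to −0.39) without training and −1.36 (−1.61 to −1.12) with it. The share of Sult2a5 stayed between 9.82% and 14.2% of Sult2a counts.

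Sult2a6 (ENSMUSG00000070810), the copy least like the rest, had 10.3 CPM in VS (9.08 to 11.7) and 7.59 in FS (6.63 to 8.65), against 7.06 in VI (6.04 to 8.20) and 1.94 in FI (1.43 to 2.58). FI stood apart from the other libraries, and VI and FS did not differ beyond their counting intervals. The log2 ratio with training was −0.55 (−0.84 to −0.26) in vehicle livers and −1.95 (−2.45 to −1.51) in fibril livers. Fibrils against vehicle gave −0.45 (−0.71 to −0.18) in sedentary livers and −1.85 (−2.36 to −1.39) in trained ones. Among the 5 copies with at least 1 CPM in some library, the training ratio was lower in fibril than in vehicle livers by 0.20 (Sult2a1) to 2.54 (Sult2a3) on the log2 scale, and for Sult2a6 the difference was −1.41 (−1.94 to −0.87). The difference of Sult2a3 (−4.12 to −0.97) rests on 3 counts in FI. In FPKM with a pseudocount of 1 its training ratios were close, −3.23 in vehicle and −3.43 in fibril livers.

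**Figure D3:**
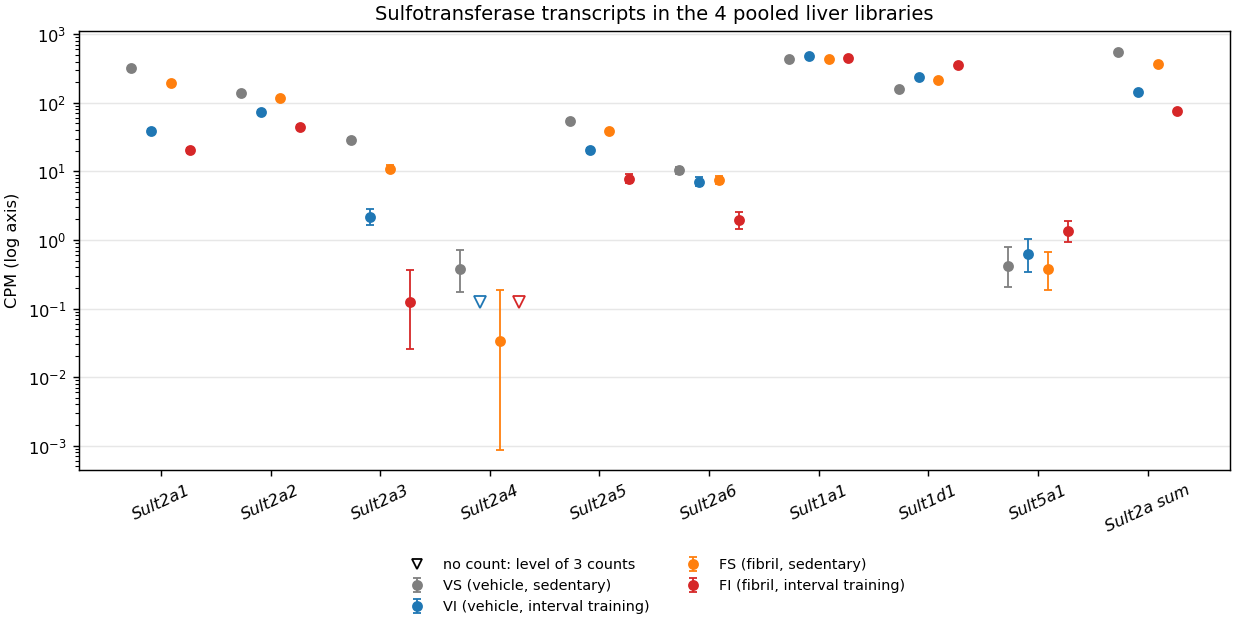
CPM of the 9 members and of the Sult2a sum in the 4 libraries on a log axis; points are single pooled libraries, bars are exact Poisson 95% intervals (counting error only), and open triangles mark libraries with no count at the level of 3 counts. The Sult2a genes sit lower in VI and FI than in VS and FS, Sult1a1 sits at 429 to 486 CPM in every library, and Sult1d1 is highest in FI.

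Sult1a1 (ENSMUSG00000030711), the phenol sulfotransferase, was nearly level across libraries, with 431 CPM in VS (423 to 440) and 429 in FS (422 to 437), against 486 in VI (478 to 495) and 444 in FI (436 to 453). VI was the highest, and VS and FS did not differ beyond their counting intervals. VI versus VS gave a log2 ratio of 0.17 (0.14 to 0.21). FI versus FS gave 0.05 with TMM and −0.02 with total counts or with the deposited FPKM, so no direction is given for it. Fibrils against vehicle gave −0.01 (−0.04 to 0.03) in sedentary livers and −0.13 (−0.17 to −0.09) in trained livers.

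Sult1d1 (ENSMUSG00000029273) ran against the Sult2a genes. It had 156 CPM in VS (151 to 162) and 215 in FS (209 to 220.0), against 237 in VI (231 to 243) and 350.1 in FI (343 to 358). FI was the highest and VS the lowest, the reverse of the Sult2a sum. Training gave log2 ratios of 0.60 (0.54 to 0.66) in vehicle livers and 0.71 (0.66 to 0.75) in fibril livers, which are 1.52-fold and 1.63-fold. Fibrils gave 0.46 (0.40 to 0.52) without training and 0.56 (0.51 to 0.61) with it. None of these reached 2-fold.

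Sult5a1 (ENSMUSG00000000739) was near the limit of what could be measured, with 10 counts in VS and 11 in FS, against 15 in VI and 33 in FI, or 0.423 and 0.373 CPM against 0.616 and 1.36. VS, VI and FS did not differ beyond counting error, and FI was above them, although its interval (0.939 to 1.92 CPM) still touched that of VI (0.345 to 1.02). FI versus FS gave a log2 ratio of 1.83 (0.85 to 3.01), FI versus VI 1.12 (0.23 to 2.13), VI versus VS 0.52 (−0.71 to 1.86) and FS versus VS −0.19 (−1.56 to 1.21). FI versus FS was below 2-fold in FPKM with a pseudocount of 1 (0.70), and FI versus VI was below it with a prior of 5 counts (0.94) and in FPKM with a pseudocount of 0.1 (0.99) or 1 (0.49).

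**Figure D4:**
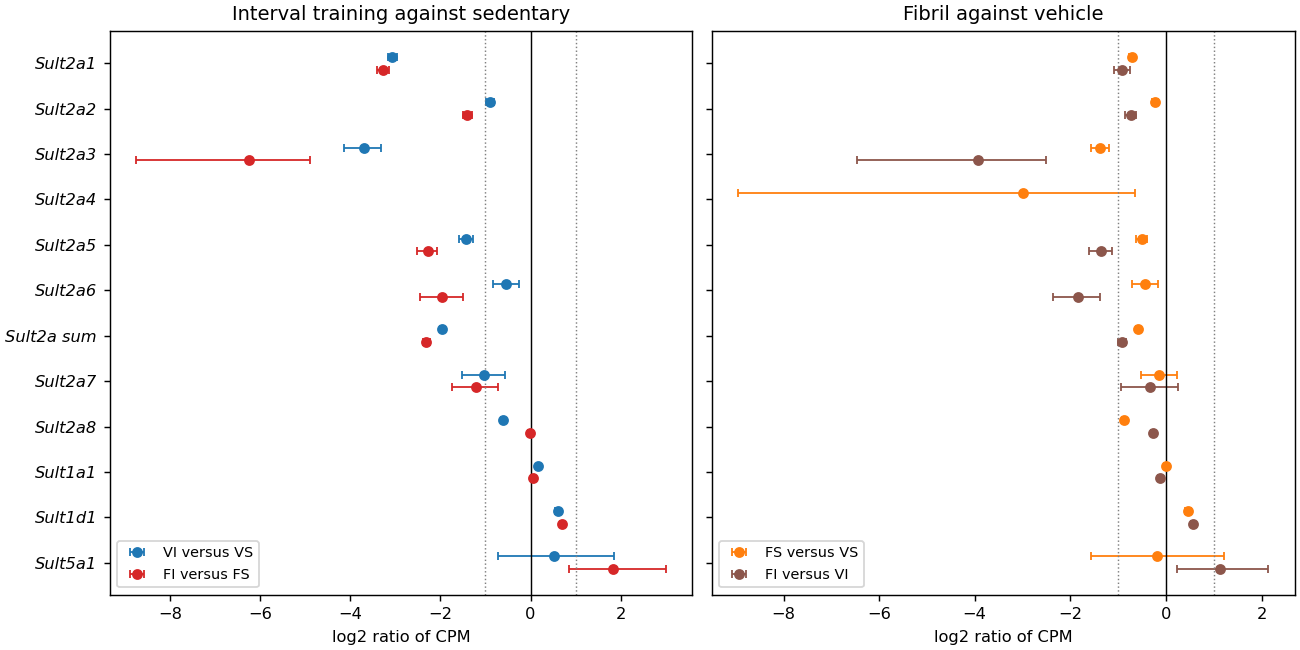
Log2 ratios of CPM for the members, the Sult2a sum, Sult2a7 and Sult2a8, with training against sedentary on the left and fibril against vehicle on the right; points are ratios of 2 pooled libraries, bars are exact conditional binomial 95% intervals (counting error only), dotted lines mark 2-fold, and ratios without a finite interval are left out. With training the Sult2a members drawn lie at −0.55 or lower, Sult1d1 at 0.60 and 0.71, and Sult1a1 near 0.

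Counted over all members, 3 of 9 were more than 2-fold lower in VI than in VS at 1 CPM or more (Sult2a1, Sult2a3 and Sult2a5) and none was higher, beside the 1.9% and 1.54% of all genes. In FI against FS 5 of 9 were lower (these 3 with Sult2a2 and Sult2a6) and Sult5a1 was higher, beside 2.53% and 1.75%. In FS against VS only Sult2a3 was lower, beside 2.2%, and in FI against VI Sult2a3, Sult2a5 and Sult2a6 were lower and Sult5a1 higher, beside 1.95% and 2.59%. Both calls of Sult5a1 were lost under the settings named above. As the members were selected on these contrasts, nothing is read from the excess over the background.

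Per transcript length, in FPKM, the balance between the enzymes differed from library to library. In VS Sult2a1 (318 FPKM) and Sult1a1 (317 FPKM) were at the top, followed by Sult2a2 (190 FPKM) and Sult1d1 (65.1 FPKM). In FS the order was Sult1a1 (321 FPKM), Sult2a1 (197 FPKM), Sult2a2 (164 FPKM) and Sult1d1 (90.9 FPKM). In VI Sult1a1 (353 FPKM) was followed by Sult2a2 (100.04 FPKM), Sult1d1 (97.3 FPKM) and Sult2a1 (37.4 FPKM), and in FI Sult1a1 (316 FPKM) by Sult1d1 (141 FPKM), Sult2a2 (58.9 FPKM) and Sult2a1 (19.4 FPKM). The order of Sult2a2 and Sult1d1 in VI was within counting error. Values of single Sult2a copies are uncertain here too, most for Sult2a2, with 62.1% of its transcript shared and a gene length of only 741 bases. The summed Sult2a level was above that of Sult1a1 in VS (600.2 FPKM) and FS (417 FPKM) and below it in VI (166 FPKM) and FI (87.7 FPKM).

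More distant relatives in the same cluster did not all follow the 6 genes. Sult2a8 (ENSMUSG00000030378), which sulfates bile acids and is listed in the table as 2810007J24Rik, had 443 CPM in VS and 242 in FS, against 290 in VI and 240 in FI. It was highest in VS and nearly level over the fibril libraries. Its log2 ratio with training was −0.61 (−0.65 to −0.57) in vehicle livers and −0.01 (−0.06 to 0.04) in fibril livers, so its ratio was larger in vehicle livers, unlike that of the Sult2a sum. Sult2a7 had 4.70, 2.30, 4.23 and 1.82 CPM, with training ratios of −1.03 (−1.52 to −0.56) and −1.21 (−1.75 to −0.71). Both trained libraries were below the sedentary ones for this gene.

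A pseudogene of another name lies inside an intron of Sult2a5 on its strand (RP23-356O13.2, chromosome 7, 13639107 to 13642572) and was named after its values had been seen. It had 238 counts in VS and 213 in FS, against 97 in VI and 23 in FI, with log2 ratios of −1.34 (−1.70 to −0.99) for VI versus VS and −2.90 (−3.61 to −2.30) for FI versus FS. Its exons do not overlap those of Sult2a5. Of all genes compared it had the pattern nearest to the Sult2a sum (distance 0.80 over 3 log2 differences from VS).

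Among 9343 genes with at least 5 CPM in some library, those nearest to the Sult2a sum over the same 3 differences included Arrdc3 (distance 0.86), Mup9 (0.88), Dbp (0.95) and Serpinb1a (0.99). Arrdc3, an arrestin family gene, had 164 CPM in VS and 81.5 in FS, against 69.7 in VI and 19.7 in FI. Dbp, a transcription factor of the clock output, had 102, 22.2, 80.9 and 25.5 CPM. Mup9 and Serpinb1a ranged from 26.6 and 9.40 CPM in VS to 6.41 and 1.53 CPM in FI. The likeness rests on 4 libraries and says nothing about shared control.

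Of 12 other cytosolic sulfotransferase genes, Sult2a7 and Sult2a8 among them, 7 had at least 1 CPM in some library. With training the median of their log2 ratios was −0.18 for vehicle and −0.40 for fibril livers, beside 0.00 for all genes in both. With training, Sult3a2 was the 1 gene beyond 2-fold higher in vehicle livers (1.26, 0.63 to 1.96, with 28 counts in VS and 70 in VI), and Sult2a7 the 1 gene beyond 2-fold lower in each pair. Sult1b1, which sulfates thyroid hormones, had 24.1 CPM in VS and 20.7 in FS, against 17.8 in VI and 13.0 in FI, lower in the trained library of each pair. Sult1c2 had 11.6, 12.1, 6.13 and 6.04 CPM, which was lower in the fibril libraries. Sult1e1, the oestrogen sulfotransferase, had 11 counts in VS and 120 in FS, against 10 in VI and 71 in FI, and Sult3a1 had 9.78, 16.1, 21.8 and 20.9 CPM. Their log2 ratios in FS versus VS were 3.07 and 1.16. Sult3a2 was more than 2-fold higher there as well (1.25, 0.63 to 1.94, with 84 counts in FS), and in FI versus VI only Sult1e1 was (2.78). Sult1e1 passed 1 CPM only through the fibril libraries, where it was higher.

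At 1 CPM or more, genes that supply the sulfonate donor stayed within 2-fold, as most of all genes did. Of 11 genes for sulfate uptake, PAPS synthesis and transport and the removal of spent donor, 10 had at least 1 CPM. None was beyond 2-fold in any of the 4 comparisons, with training medians of −0.17 for vehicle and −0.04 for fibril livers. Of all genes, 1.54% to 3.6% were higher and 1.9% to 2.53% lower in these comparisons, so none among 10 is near that share. Papss2, the main PAPS synthase of liver, had 248 CPM in VS and 142 in FS, against 230.0 in VI and 153 in FI, which was lower in the fibril libraries. Papss1, the other PAPS synthase, had 7.88, 6.69, 15.0 and 11.2 CPM, which was higher in them. Cdo1, which starts the oxidation of cysteine towards sulfate, had 1475, 2119, 1698 and 2074 CPM, higher in the trained library of each pair. Slc26a1, Slc35b2, Slc35b3, Bpnt1, Impad1 and Suox had log2 ratios between −0.38 and 0.29 with training. Of 10 sulfatase genes, which remove sulfate from other molecules, 9 were listed and had at least 1 CPM, and none was beyond 2-fold with training, while Arsg was more than 2-fold higher in FS than in VS.

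Of 19 nuclear receptors and other factors known to act on Sult2a genes, 18 had at least 1 CPM and none was beyond 2-fold with training, with medians of 0.08 for vehicle and 0.04 for fibril livers. Of all genes, 1.54% were higher and 1.9% lower by that much in vehicle livers, and 1.75% and 2.53% in fibril livers. The constitutive androstane receptor gene Nr1i3, whose receptor binds Sult2a promoters, had 217 CPM in VS and 99.2 in FS, against 169 in VI and 88.8 in FI. It was lower in both fibril libraries, with log2 ratios of −1.13 in FS versus VS and −0.93 in FI versus VI. Cebpa, a hepatocyte transcription factor, had 618, 402, 421 and 367 CPM, highest in VS. A further 13 regulators with at least 5 CPM, namely Nr1i2, Nr1h4, Nr0b2, Rora, Nr1h3, Ppara, Rxra, Hnf4a, Cebpb, Stat5a, Stat5b, Nr3c1 and Esr1, had training ratios between −0.33 and 0.65.

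**Figure D5:**
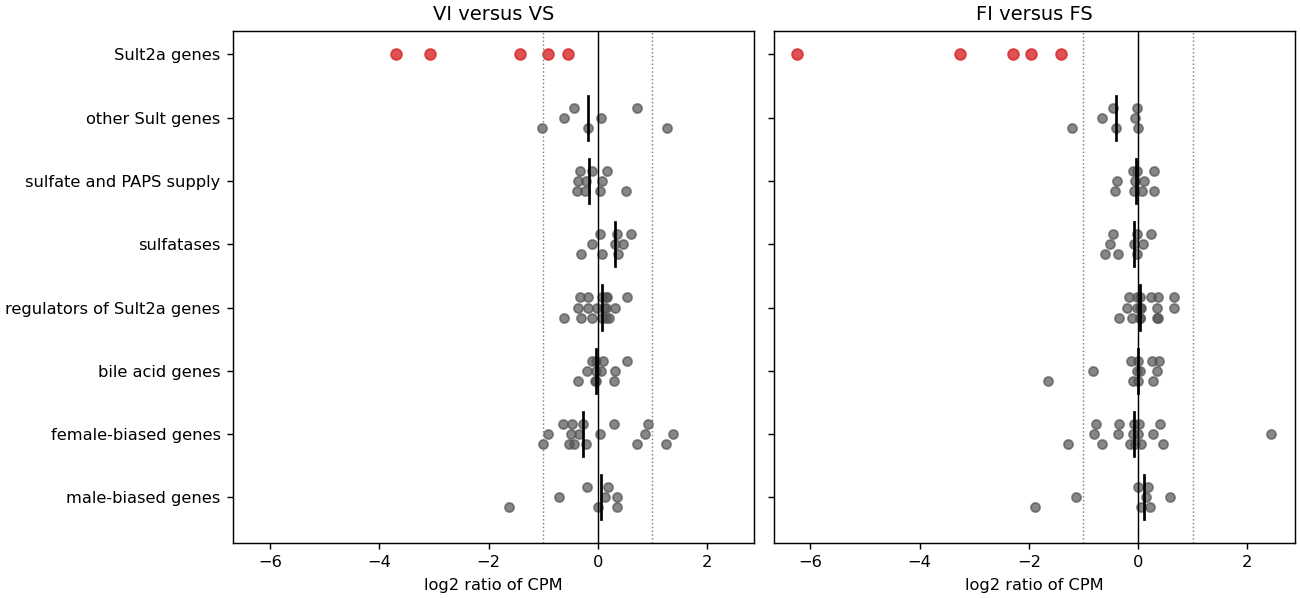
Log2 ratios of CPM with training in vehicle livers (left) and fibril livers (right) for the Sult2a genes and 7 lists of genes with at least 1 CPM in some library; each point is a gene, short black bars are list medians and dotted lines mark 2-fold. The red Sult2a points reach −3.70 and −6.24. The sulfate and PAPS genes and the regulators all stay within 2-fold, as most of all genes do.

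Since Sult2a transcripts are female-biased, other genes with sex-biased liver expression were counted too. Of 17 female-biased genes, Cyp17a1 and A1bg were more than 2-fold higher and none lower in VI versus VS, and Cyp3a44 was lower in FI versus FS, with medians of −0.26 and −0.07. In FS versus VS Sult3a1, Cyp17a1 and A1bg were higher and Cyp2b13, Acot3 and Hao2 lower, and in FI versus VI only Acot3 was lower. Acot3, an acyl-CoA thioesterase of this list, had 183 CPM in VS and 46.6 in FS, against 131 in VI and 64.3 in FI. Of 13 male-biased genes, 8 had at least 1 CPM, and with training Elovl3 was beyond 2-fold lower in vehicle livers, and Elovl3 and Selenbp2 in fibril livers. Both had few counts, 28, 9, 17 and 6 for Elovl3 and 21, 13, 47 and 10 for Selenbp2. Elovl3 passed 1 CPM only through VS and Selenbp2 only through FS, where each was highest. The ratio of Elovl3 in FI versus FS, −1.14 (−2.85 to 0.20), was not beyond counting error. All 12 genes of bile acid synthesis and transport stayed within 2-fold in VI versus VS, as most of all genes did. Only Cyp7a1, the rate-limiting enzyme of bile acid synthesis, was beyond 2-fold lower in FI versus FS. With fibrils none was beyond 2-fold in FS versus VS, and only Cyp7a1 was in FI versus VI (−1.71). The medians of the list were −0.34 in FS versus VS and −0.31 in FI versus VI.

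Other groups of genes moved with the same contrasts. Clock genes differed with training: of 13 with at least 1 CPM, Arntl, Cry1 and Clock were more than 2-fold higher and Nr1d1, Dbp and Ciart lower in vehicle livers, and all of these but Clock and Ciart were so in fibril livers. Arntl, a core clock activator, had 1.44 CPM in VS and 1.12 in FS, against 6.65 in VI and 4.71 in FI, and the repressor genes Cry1 (13.9, 31.5, 6.37 and 22.3 CPM) and Nr1d1 (30.0, 7.10, 49.0 and 7.19 CPM) differed in the same pairs. The study's methods give no hour of tissue collection per group. The part of the clock phase in the Sult2a values was not tested, and with 1 pooled library per group it cannot be told apart from that of training.

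Acute phase genes, which the liver raises in inflammation, differed with fibrils, with 7 of 10 more than 2-fold higher in FS versus VS and 6 in FI versus VI. They differed with training as well: Saa1, Saa2, Lcn2 and Orm2 were more than 2-fold higher in VI than in VS, and Saa2 and Saa3 in FI than in FS. Saa1 had 30.0 CPM in VS and 945 in FS, against 155 in VI and 1803 in FI, and Lcn2, which binds bacterial siderophores, had 6.35, 36.5, 367 and 549 CPM. Saa2, Orm2 and Serpina3n were likewise more than 2-fold higher in both fibril comparisons. Their part in the Sult2a values was not tested.

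Markers of zones and of other cells were measured for the same reason. None of 8 pericentral genes was beyond 2-fold with training, and of 7 periportal genes only Sds was, higher in vehicle livers. Most of all genes stayed within 2-fold as well. With training, 6 periportal genes had log2 ratios above 0 and 1 below in vehicle livers (median 0.38), and 5 and 2 in fibril livers (0.21). Of the pericentral genes 4 were above and 4 below in vehicle livers (median −0.09), and 5 and 3 in fibril livers (0.14). The median of all genes was 0.00 in both. In FS versus VS 7 pericentral genes had log2 ratios below 0 and 1 above, with a median of −0.47. In FI versus VI 6 were below and 2 above, with a median of −0.15. Beyond 2-fold among them were Cyp1a2 in FS versus VS (−1.15) and Axin2 in FI versus VI (−1.07). Of the periportal genes only Sds was beyond 2-fold with fibrils, higher in FS versus VS (1.06). The 7 Kupffer cell markers summed to 238 CPM in VS and 360.4 in FS, against 289 in VI and 357 in FI. The 13 skeletal muscle markers summed to 78.5, 10.2, 1.12 and 1.07 CPM, with Tnnc2 at 0 in every library. The Sult2a sum differed 3.90-fold between VS and VI and 4.95-fold between FS and FI, and the part of muscle RNA in these values was not tested. The 6 lymphocyte markers summed to 1.68 to 3.60 CPM, the 4 duct markers to 3.47 to 5.42 CPM, and the 6 pancreas markers to 12.2 to 22.8 CPM, with Prss2, Cpa1, Amy2a5 and Pnlip at 0 throughout. The 4 Y-linked genes had 1 count in VS and none elsewhere.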

How the data were processed

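Homogenized liver of 4 female mice per group was pooled by the authors before RNA extraction and Illumina sequencing, which gave 4 libraries. The deposited values are 1 raw read count per gene and library. The submitters' processing notes name fastp 0.23.2, STAR 2.5, HTSeq 0.6.1 and mm10, with no options, and the sources used here give neither read length nor strand setting. How reads that match several Sult2a copies were counted is therefore unknown. The authors derived the deposited FPKM from the same counts: each equals the count divided by gene length and library total on the usual scale (ratio 1 for 69722 values above 0). The study's tests used edgeR with an unstated dispersion, and its fold changes and p-values were not used.

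Counts were scaled with TMM in edgeR 4.0.16 (R 4.3.3), with size factors of DESeq2 1.42.0 and total counts as alternatives, and handled in Python 3.11.15 with scipy 1.17.1 and matplotlib 3.10.9. Log2 ratios used a prior of 0.5 counts and exact conditional binomial (Clopper-Pearson) 95% intervals, and CPM had exact Poisson intervals. The difference of 2 ratios had an interval from the Poisson variance of 4 counts. With 1 library per group there was no test and no p-value. Genes needed at least 1 CPM in at least 1 library to be counted beyond 2-fold. A fold against 0 counts was taken against 3 counts in that library. The scripts were tested on simulated data. The members and the gene lists were chosen with earlier results of these data known. Named were all members and their sum, list genes with at least 5 CPM in the sulfotransferase, PAPS and regulator lists or beyond 2-fold in both training or both fibril contrasts, and the 5 nearest patterns by Euclidean distance, with predicted genes passed over; other genes named were chosen after their values were seen. Promoters are from RefSeq (GRCm38.p6) and transcripts from GENCODE M21 on the same build. Some genes that these rules name are not reported here. No column of another sample was present.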

Additional observations from a re-analysis of the deposited data

Results flagged for a closer look

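Some genes of the lists moved one way in vehicle livers and the other way in fibril livers, or one way in sedentary and the other in trained livers, each by more than counting error with TMM scaling. These differences rest on 1 library per group and were not tested. No member of the sulfotransferase set was among these genes. Beyond the members and the Sult2a sum, only Sult2a7, Sult2a8 and most list genes named by rule were searched. The genes below are therefore not a full list. Ciart, which was not searched, had training ratios of −1.38 in vehicle livers and 0.19 (0.03 to 0.35) in fibril livers. The log2 ratio with training was higher in fibril than in vehicle livers by 0.22 for Papss2, 0.65 for Suox and 0.94 for Acot3, while the difference was −0.25 for Nr1h4 and −2.51 for Orm2. The log2 ratio with fibrils was higher in trained than in sedentary livers by 0.34 for Slc26a1, 0.65 for Suox, 0.50 for Nr1i2, 0.37 for Nr1h3 and 0.53 for Dbp, while the difference was −0.23 for Cdo1. For Suox both differences are the same 4 counts read in 2 ways.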

How the results depend on the processing

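No paired analysis was possible because each group is 1 pooled library, and for the same reason no library could be left out. Of 170 alternative values of single genes, 158 moved by less than their counting error. The other 12 were those of Sult1a1 below, Sult1d1 in FI versus FS (0.63 with total counts or FPKM) and, in FPKM with a pseudocount of 1, Sult2a3 in 3 comparisons, Sult2a4 in 2 and Sult5a1 in FI versus FS, which fell below 2-fold (0.70). Sult1a1 in FI versus FS turned from 0.05 to −0.0214 with total counts and with FPKM at either pseudocount. The Sult2a sum moved with its make-up. In VI versus VS it was −1.85 with FPKM at a pseudocount of 0.1 or 1, −1.21 with all Sult2a genes and pseudogenes and −1.16 without Sult2a1. In FI versus FS it was −0.96 with all of them and −1.68 without Sult2a1. In FS versus VS it was −0.52 with FPKM at either pseudocount, −0.70 with all and −0.41 without Sult2a1, and in FI versus VI it was −0.46 with all. The difference in the training ratio between fibril and vehicle livers was −0.52 without Sult2a1 and turned to 0.24 with all. FPKM weight the copies by length. No scaling moved a log2 ratio by more than 0.071.

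Counts of genes beyond 2-fold depended on the filter, the pseudocount and the fold. Without a filter they were, with training, 1992 higher and 2038 lower in vehicle livers and 1885 and 2292 in fibril livers, and with fibrils 2481 and 2086 in sedentary livers and 2056 and 2141 in trained livers. With at least 5 CPM they were 79 and 65, 80 and 123, 223 and 130, and 138 and 91 in the same order. With FPKM and a pseudocount of 1 they were 51 and 56, 39 and 78, 147 and 95, and 81 and 58. With FPKM and a pseudocount of 0.1 the higher genes fell to 114 for training in vehicle livers and 120 in fibril livers. With a fold of 1.5 they were 651 and 767, 728 and 919, 1230 and 910, and 962 and 740.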
